A study of Mus musculus with 3 samples.

Results

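Stra8-negative spermatogonia were studied in single-cell RNA libraries of adult mouse testis. They are the 209 barcodes, of 33038 deposited, that carried spermatogonial transcripts but no unique molecular identifier (UMI, 1 counted mRNA molecule) of Stra8. A barcode first had to pass a quality filter of at least 3000 UMIs, at least 1000 genes, at most 10% mitochondrial UMIs and under 2% of UMIs from the protamine and transition protein genes Prm1, Prm2, Tnp1 and Tnp2, which 7279 barcodes did. A member then needed at least 1 UMI of the germ-cell gene Dazl and no Stra8 UMI. It also needed at least 3 UMIs summed over Uchl1, Zbtb16, Gfra1, Ret, Sall4, Lin28a and Dmrt1, and more of these than of the meiotic genes Prss50, Meiob, Sycp1, Piwil1 and Pou5f2. These measured values chose the members, so levels of the rule's genes are description only.

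The series compared spermatogenesis in wildtype mice and in mice with a conditional knockout of Tex10, which encodes a nuclear protein of a ribosome maturation complex. Each wildtype library, replicate 1 and replicate 2, came from the testis of 1 wildtype mouse, and the knockout library pooled testis cells of 2 conditional Tex10 knockout mice. The 3 libraries share the strain label C57BL/6N and the age label adult, and no treatment is named. The labels do not name the Cre driver or the deleted part of Tex10, so the labels do not say in which cells recombination was meant to occur. The knockout group is 1 library, so its spread is unknown, and knockout values are set beside both wildtype values with a size rule rather than a test as the main description. Intervals in brackets or parentheses are exact 95% intervals for counting error only.

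Spermatogonia are the mitotic germ cells on the basement membrane of the seminiferous tubule. A small undifferentiated fraction holds the stem cells, which depend on glial cell line-derived neurotrophic factor (GDNF) from Sertoli cells, the somatic nurse cells of the tubule. Retinoic acid turns undifferentiated cells into differentiating, Kit-positive spermatogonia and later starts meiosis, and Stra8 is the classic gene that it switches on at both steps. Retinoic acid receptors bind pairs of the half-site AGGTCA.

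The promoter of Stra8, the gene whose UMIs had to be 0, and that of Sdc4, which led the smaller of the 2 groups of members described below, are shown because they differ in the number of these half-sites. Each runs 5′ to 3′ on the gene's strand from RefSeq (GRCm38.p6), from 250 bases before the start of transcription to 50 after it, with AGGTCA in capitals. The windows lie at chr6:34920698-34920997 on the plus strand for Stra8 and chr2:164443139-164443438 on the minus strand for Sdc4.
Stra8: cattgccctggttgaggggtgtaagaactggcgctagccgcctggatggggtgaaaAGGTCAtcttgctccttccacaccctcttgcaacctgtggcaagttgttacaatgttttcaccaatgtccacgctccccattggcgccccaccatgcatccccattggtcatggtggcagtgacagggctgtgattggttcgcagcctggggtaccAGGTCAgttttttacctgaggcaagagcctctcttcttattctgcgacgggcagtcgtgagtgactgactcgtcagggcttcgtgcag
Sdc4: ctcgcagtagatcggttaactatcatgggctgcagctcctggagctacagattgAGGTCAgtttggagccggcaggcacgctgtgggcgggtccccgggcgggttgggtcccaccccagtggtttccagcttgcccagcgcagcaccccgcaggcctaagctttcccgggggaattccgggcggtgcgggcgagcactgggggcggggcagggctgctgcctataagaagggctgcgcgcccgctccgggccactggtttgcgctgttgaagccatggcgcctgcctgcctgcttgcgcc
Searched on both strands, AGGTCA occurred 2 times in the Stra8 window and 1 time in the Sdc4 window. The Kit window at chr5:75574737-75575036 and the Tex10 window at chr4:48473414-48473713 held none. Of all 32851 promoters of this length, 5340 (16.3%) held at least 1 match, so these counts describe the letters of these windows and identify no binding site.

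The libraries held 9967 and 10153 wildtype and 12918 knockout barcodes, with 93418341, 96001773 and 147783171 UMIs. Wildtype replicate 1 gave 67 members, or 3.25% (2.53 to 4.11) of its 2060 quality-passing barcodes. Wildtype replicate 2 gave 70 members of 2596 (2.70%, 2.11 to 3.39), and the knockout library 72 of 2623 (2.74%, 2.15 to 3.44). The knockout share lay between the wildtype shares. Median UMIs per member were 11915, 10510 and 15464.5, the first pair being wildtype and the last knockout, so knockout members were the deepest. Between 27 and 30 barcode sequences recurred between any pair of libraries, but no member barcode did.

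The limits of the rule passed through a continuous range. A marker sum of exactly 3 was held by 3, 8 and 2 members in the order wildtype replicate 1, wildtype replicate 2, knockout, while 1, 5 and 3 barcodes were left out only for a sum of 2. Members exceeded the meiotic sum by exactly 1 UMI in 7, 4 and 7 cases, and 4, 10 and 7 barcodes were left out because the sums were tied. Dazl stood at exactly 1 UMI in 2, 2 and 7 members, and 12, 7 and 19 barcodes missed membership only because Dazl was 0. The Stra8 condition split the remaining spermatogonia almost evenly, since 62, 74 and 76 barcodes met the rest of the rule but held Stra8. Members were thus 51.9% (43.0 to 60.8), 48.6% (40.2 to 57.1) and 48.6% (40.4 to 57.0) of both kinds together. The median Stra8-positive cell held only 3.5, 4 and 4 Stra8 UMIs, and 20, 23 and 18 of them held 1. After every barcode had been thinned to 3000 UMIs and the rule applied again, the Stra8-negative share was 64.6%, 58.8% and 59.8%, so the absence of a Stra8 UMI depends on depth and is not proof of an unexpressed gene.

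The data went against the label in a minority of members. Of the 209, 15 held at least 20 UMIs of a somatic marker list, and 14 of these were rich in Sertoli-cell transcripts, with 106 to 1391 UMIs of a 16-gene Sertoli list, against at most 16 in every other member. All 14 had 0 UMIs of Zbtb16, Gfra1, Ret, Sall4 and Lin28a, and met the rule through Uchl1 and Dmrt1. Clu, an abundant Sertoli transcript, reached 243 UMIs in 1 of them. The fifteenth, a knockout barcode, held 152 UMIs of a 7-gene peritubular myoid list, 68 of them of Acta2, together with 18 Dazl, 2 Sall4 and 2 Lin28a UMIs. These somatic-rich members had a median of 1 Dazl UMI, against 13 in the other members.

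**Figure D1:**
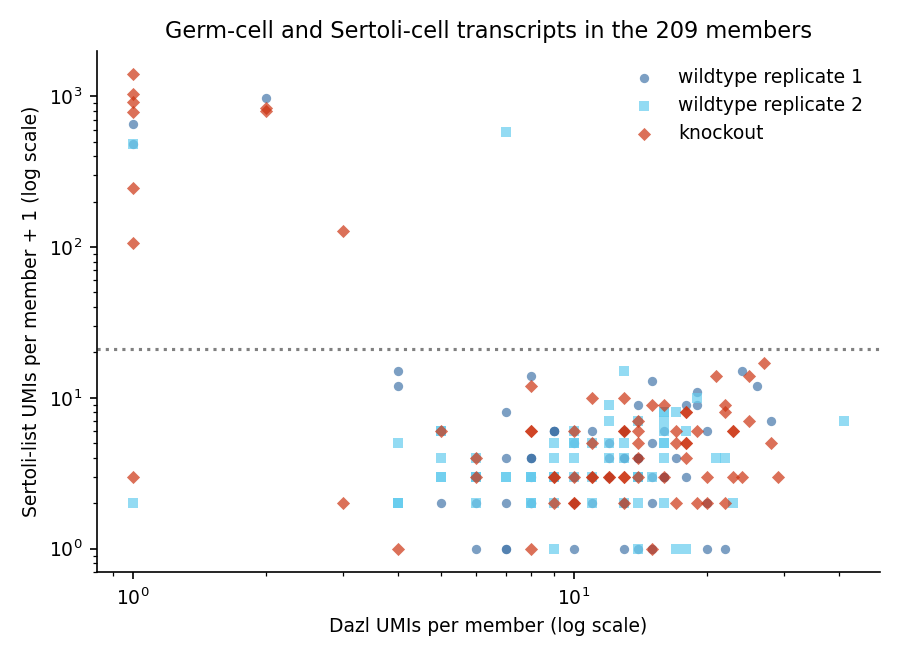
Each point is 1 of the 209 members, with its Dazl UMIs on a log axis and its Sertoli-list UMIs plus 1 on a log axis, coloured by library; the dotted line marks the limit of 20 UMIs. The 14 Sertoli-rich members lie above the line, most of them at 1 or 2 Dazl UMIs, and all other members lie at or below 16 Sertoli-list UMIs.

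Somatic-rich members were unevenly spread over the libraries. They were 3 of 67 in wildtype replicate 1 (4.48%, 0.933 to 12.5), 2 of 70 in wildtype replicate 2 (2.86%, 0.348 to 9.94) and 10 of 72 in the knockout library (13.9%, 6.87 to 24.1). The other 194 members, 64 and 68 wildtype and 62 knockout, lay under this somatic limit, and the results below are given for these 194 unless all 209 are named. The limit of 20 UMIs was set with the values in view. Among the 194, Leydig, peritubular myoid, interstitial mesenchyme, macrophage and lymphocyte lists each summed to at most 20.7 CPM (counts scaled to a library sum of 1000000 UMIs) in any library. The endothelial list summed to 53.4, 50.2 and 58.9 CPM, with at most 5 UMIs in any member. The Sertoli list summed to 310, 274 and 260 CPM, with the Sertoli receptor gene Fshr at 0 in all 3 libraries. RNA of elongating spermatids was present in all of them at 5658 to 6001 CPM, with a median of 66 to 85.5 UMIs per member. The round spermatid list summed to 393, 448 and 299.8 CPM. The spermatocyte list, 15 genes, summed to 1471, 2315 and 1569 CPM, with a median of 17, 18 and 22.5 UMIs per member. In wildtype replicate 2, 2 members of the larger cluster described below held 427 and 214 UMIs of it, against at most 57 in a member of the other libraries. Without these 2 its level there was 1632 CPM.

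The levels of the rule's genes in the 194 varied least for the abundant ones. Uchl1, a deubiquitinase of spermatogonia, stood at 660, 687 and 701 CPM in the order wildtype replicate 1, wildtype replicate 2, knockout. The RNA regulator Dazl stood at 1039, 1011 and 948 CPM. The transcription factor Dmrt1, which holds back meiosis, stood at 219, 193 and 198 CPM, and Sall4 at 52.1, 52.8 and 51.7 CPM. The repressor Zbtb16 (PLZF) stood at 56.0, 60.5 and 84.8 CPM. The GDNF receptor pair was sparse, with Gfra1 at 9.11, 7.72 and 16.5 CPM and Ret at 7.81, 16.7 and 16.5 CPM. Since these genes entered the rule, their levels say only what was selected.

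The 194 members were split into 2 groups by clustering on the 1500 most variable genes, centred within each library; the rule's genes were not left out. The smaller held 48 members and is called the Sdc4-rich cluster after its leading gene, and the larger held 146 and is called the Kit-rich cluster. Along the first principal component, signed so that Egr4 is high, the Sdc4-rich members lay between 4.53 and 12.2 and the Kit-rich members between -8.20 and 4.41, with 4 cells within 1 unit of the boundary. Of 12 marker genes of undifferentiated spermatogonia, 11 were detected, 9 were higher in the Sdc4-rich cluster in all 3 libraries and none was higher in the Kit-rich cluster in all 3. By the size rule given below, 4 of the 12 passed as higher in the Sdc4-rich cluster, beside 6.92% of 9112 genes. Several rested on few UMIs over both clusters, with 5 each for Pax7 and Epha2, 8 for Eomes, 10 for Lhx1 and 16 for Etv5. The Sdc4-rich cells are called undifferentiated-like after these counts, as a label that was not tested. The Kit-rich cluster stays unnamed, because of 5 differentiation markers Kit and Dmrtb1 were higher there in all libraries while Sohlh1, Sohlh2 and Ccnd2 were lower.

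**Figure D2:**
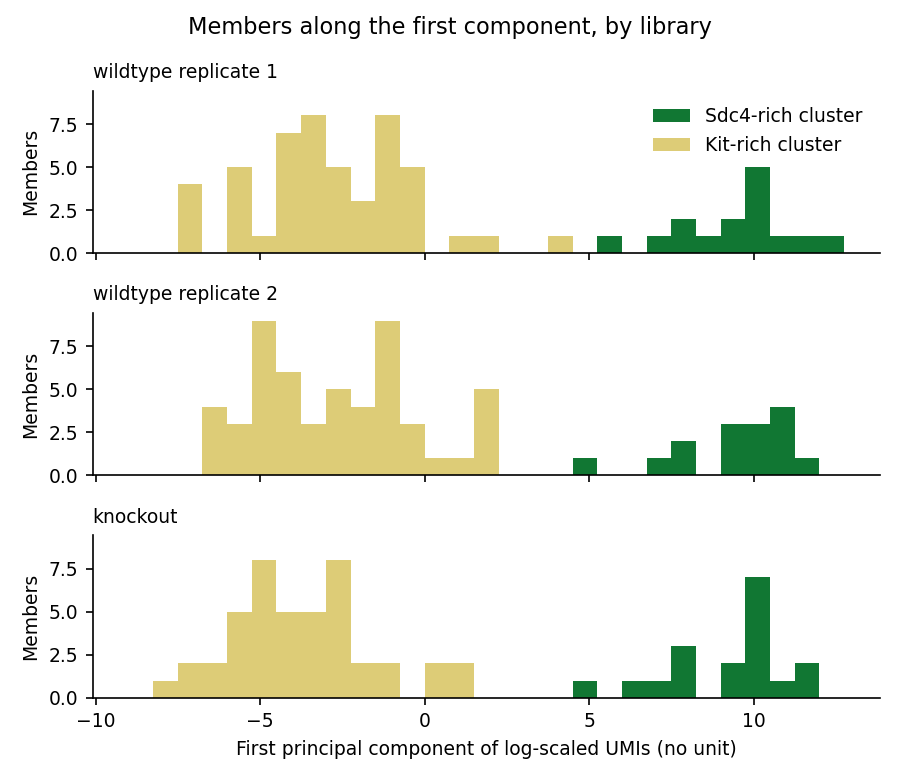
Histograms of the 194 members along the first principal component of log-scaled UMIs (no unit), 1 panel per library, with the number of members on the y axis and the cluster in colour. All 3 libraries hold both groups, the Sdc4-rich cluster with 15, 15 and 18 members on the right and the Kit-rich cluster with 49, 53 and 44 on the left.

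Both clusters were present in every library. The Sdc4-rich cluster made up 15 of 64 members in wildtype replicate 1 (23.4%, 13.8 to 35.7), 15 of 68 in wildtype replicate 2 (22.1%, 12.9 to 33.8) and 18 of 62 in the knockout library (29.0%, 18.2 to 41.9), and these intervals overlapped. Its median UMI totals were 11976, 14698 and 18324.5, against 11665, 9275 and 14254.5 in the Kit-rich cluster. Its median mitochondrial share was 6.65%, 6.99% and 5.80%, against 4.84%, 4.53% and 3.88%, and the part of these differences in the separation was not tested. Genes of the ribosomal proteins held 20.4%, 21.1% and 20.2% of its UMIs but 15.8%, 14.5% and 15.3% of those of the Kit-rich cluster. The cells were clustered on these genes, so what follows describes the clusters and tests nothing. By a size rule of at least 2-fold in the same direction in all 3 libraries, with 1 CPM added and at least 20 CPM in 1 pooled sum, 631 of 9112 genes (6.92%) were higher in the Sdc4-rich cluster and 560 (6.15%) in the Kit-rich cluster. The median log2 ratio of all these genes was -0.22. A gene low in the members as a whole could enter only through the cluster where it was high, so counts over the lists below support nothing. Among the 7667 genes at 20 CPM or more in the sum of both clusters in at least 1 library, 284 (3.7%) were higher in the Sdc4-rich cluster and 476 (6.21%) in the Kit-rich cluster. Counts of list genes at that level are given beside the others where they differ most.

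Of the 31 genes of the stem and undifferentiated list, 13 reached 20 CPM in the summed members, and of these 6 were higher in the Sdc4-rich cluster by the size rule and 0 lower. With genes that reached 20 CPM in 1 cluster only, the count was 11 of 20. Sdc4, a cell-surface heparan sulfate proteoglycan, stood at 755, 767 and 700 CPM there and at 3.50, 1.82 and 6.26 CPM in the Kit-rich cluster. Every one of the 48 Sdc4-rich cells held a Sdc4 UMI, against 7 of the 146 others, counted as 2, 1 and 4 by library. The somatic-rich members, which were not clustered, held Sdc4 too, at 1 to 19 UMIs each, so Sdc4 alone does not mark these cells. The early growth response factor Egr4 stood at 218, 339 and 222 CPM against 7.01, 9.08 and 12.5 CPM. Nanos3, an RNA-binding protein of undifferentiated germ cells, stood at 86.2, 106 and 94.4 CPM against 5.25, 0 and 4.70 CPM. Id4, an inhibitor of helix-loop-helix factors that marks stem cells, stood at 40.6, 52.9 and 63.9 CPM against 8.76, 14.5 and 7.83 CPM. The values of the 2 clusters did not overlap for any of these 4 genes. All 4 were named because they passed the size rule between the clusters, so this lack of overlap is description only.

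Some low-level stem cell factors were also counted mainly in the Sdc4-rich cluster, with few counts. Eomes, Foxc2 and Glis3 reached 20 CPM in that cluster but not in the summed members, so they support nothing. Other low-level markers did not hold in every library. In both clusters, Nanos2 was at 0 in the knockout library, Bcl6b at 0 in wildtype replicate 2 and Shisa6 at 0 in all libraries. Eomes stood at 5.07, 22.04 and 6.09 CPM and Foxc2 at 30.4, 30.9 and 24.4 CPM in the Sdc4-rich cluster, and both were at 0 in the Kit-rich cluster. Glis3, a zinc finger factor, stood at 35.5, 26.4 and 45.7 CPM and was also at 0 there. Sox3, in contrast, was measured in both, at 137, 154 and 107 CPM against 54.3, 47.2 and 18.8 CPM. Of the GDNF and fibroblast growth factor list, 3 of 7 measured genes (1 of 4 at 20 CPM in the summed members) were higher in the Sdc4-rich cluster and 0 lower: the ERK phosphatase Dusp6, the ETS factor Etv4 and the immediate early gene Egr1. Dusp6 stood at 45.6, 17.6 and 12.2 CPM there and at 0 in the other cluster. The rule's own Gfra1 (35.5, 26.4 and 39.6 CPM against 0, 0 and 4.70 CPM) and Ret (30.4, 57.3 and 36.5 CPM against 0, 0 and 6.26 CPM) were concentrated in the same cells.

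The genes with the largest smallest ratio across libraries included several that the fixed lists did not hold. Foxf1, a forkhead factor, stood at 81.1, 115 and 91.3 CPM in the Sdc4-rich cluster and at 0 in all 3 Kit-rich sums. Against a limit of 3 counts over the whole Kit-rich cluster this is at least 56.1-fold higher. The uridine phosphorylase Upp1, which the stem cell list did hold, was at least 43.7-fold higher on the same measure, Asphd2 at least 42.1-fold, the guanine exchange factor Fgd5 at least 39.8-fold, the Hedgehog receptor Ptch1 at least 31.2-fold and Tcl1 at least 27.3-fold. Zfp462 was close to 0 in the other cluster, with 117, 119 and 107 CPM against 1.75, 0 and 0 CPM.

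Several paralogs, picked after their values had been seen, differed in direction between the clusters. Of the D-type cyclins, which drive entry into S phase, Ccnd2 stood at 324, 212 and 183 CPM in the Sdc4-rich cluster against 0, 1.82 and 6.26 CPM in the Kit-rich cluster. Ccnd1 was lower there, at 65.9, 39.7 and 57.8 CPM against 271, 289 and 258 CPM, and Ccnd3 was higher, at 101, 137 and 103 CPM against 35.0, 19.99 and 36.0 CPM. Of the Nanos proteins, Nanos1 was the reverse of Nanos3, at 35.5, 30.9 and 21.3 CPM against 73.6, 72.7 and 90.8 CPM. The microRNA regulator Lin28b likewise ran against its rule-bound paralog, at 40.6, 17.6 and 27.4 CPM in the Sdc4-rich and 99.8, 69.0 and 75.1 CPM in the Kit-rich cluster, whereas Lin28a stood at 60.8, 39.7 and 76.1 CPM against 5.25, 12.7 and 4.70 CPM. The X-linked RNA helicase Ddx3x was counted only in the Sdc4-rich cluster (60.8, 74.9 and 27.4 CPM), and its Y-linked partner Ddx3y was lower there (10.1, 4.41 and 15.2 CPM against 35.0, 49.1 and 42.3 CPM).

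Genes of differentiating spermatogonia went both ways between the clusters. Of 14 measured genes of that list, 6 were higher in the Kit-rich cluster and 2 lower, the latter being Ccnd2 and Ccnd3. Of all 9112 genes, 6.15% were higher and 6.92% lower there. Sohlh1 was lower in the Kit-rich cluster without passing, at 140, 94.5 and 108 CPM against 253, 190 and 228 CPM. Sohlh2 was too, at 26.3, 16.4 and 26.6 CPM against 40.6, 39.7 and 27.4 CPM. Kit, the receptor of stem cell factor, stood at 138, 109 and 97.1 CPM against 5.07, 0 and 6.09 CPM in the Sdc4-rich cluster. The retinoic acid-binding protein Crabp1 stood at 340, 342 and 357 CPM against 86.2, 119 and 88.3 CPM. The X-linked homeobox genes Rhox13 (166, 154 and 167 CPM against 25.3, 17.6 and 30.4 CPM) and Esx1 (138, 147 and 216 CPM against 0, 13.2 and 24.4 CPM) and the meiosis-delaying factor Dmrtb1 (158, 233 and 153 CPM against 55.8, 44.1 and 42.6 CPM) did the same. Outside the lists, the T-box factor Tbx1 (82.3, 65.4 and 83.0 CPM) and the neuropeptide galanin, Gal (38.5, 49.1 and 40.7 CPM), were at 0 in all 3 Sdc4-rich sums, at least 19.4-fold and 10.7-fold lower there on the 3-count limit. Nexmif, Rnf128, Ppp1r14a, Morc4, Evpl, Rtkn2 and Aif1l were likewise at 0 in every Sdc4-rich sum, with 17.5 to 47.3 CPM in the Kit-rich ones.

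**Figure D3:**
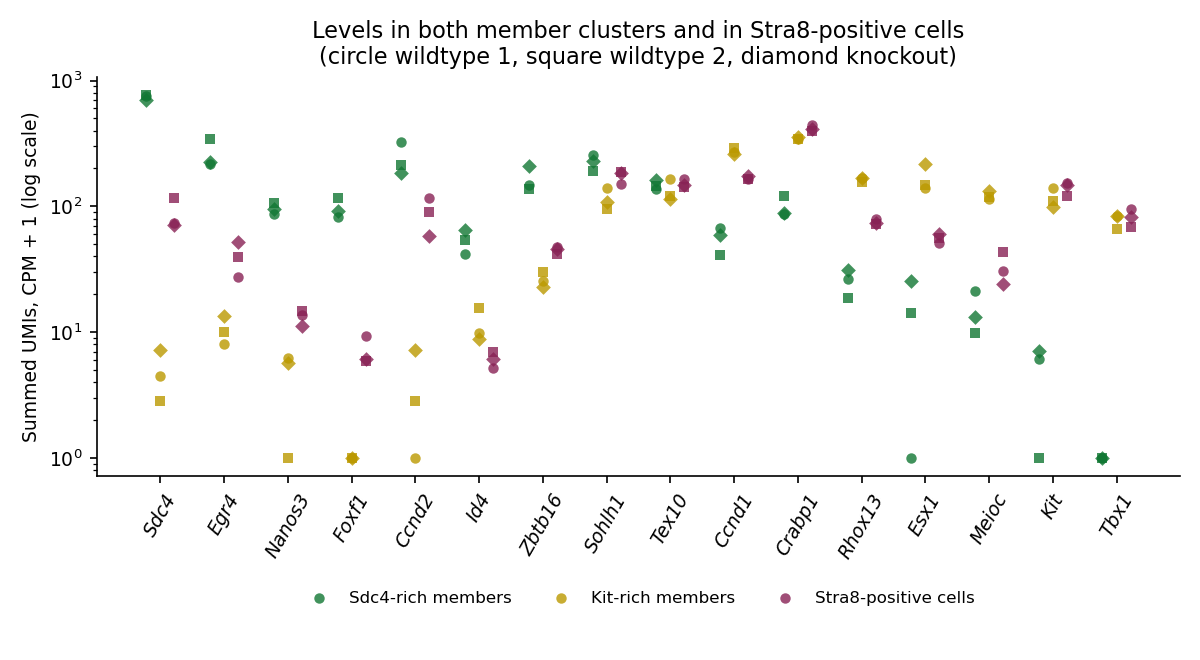
Summed UMIs as CPM plus 1 on a log axis for 16 genes in the Sdc4-rich members (green), the Kit-rich members (dark yellow) and the Stra8-positive cells (purple), with a circle for wildtype replicate 1, a square for wildtype replicate 2 and a diamond for the knockout library. Sdc4, Egr4, Nanos3, Foxf1 and Ccnd2 are highest in the Sdc4-rich members with Stra8-positive cells in between, while Kit and Tbx1 stand alike in Kit-rich and Stra8-positive cells and Meioc is highest in Kit-rich members.

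Of 18 measured genes of meiotic entry and prophase, 7 were higher in the Kit-rich cluster (5 of 15 at 20 CPM in the summed members) and 0 in the Sdc4-rich cluster, although no member held Stra8 and each held fewer UMIs of the 5 meiotic rule genes than of the spermatogonial ones. Meioc, a partner of the helicase Ythdc2 in the switch from mitosis to meiosis, stood at 114, 118 and 131 CPM against 20.3, 8.82 and 12.2 CPM. In Stra8-positive cells, of which 62, 73 and 72 were kept after somatic-rich ones had been left out by the same limit, it stood at 29.4, 42.5 and 23.1 CPM, below the Kit-rich members in every library. Ythdc2 itself stood at 124, 147 and 111 CPM in the Kit-rich cluster, 30.4, 35.3 and 24.4 CPM in the Sdc4-rich cluster and 57.7, 76.0 and 50.6 CPM in Stra8-positive cells. The cohesin subunit Smc1b (536, 701 and 646 CPM against 177, 216 and 314 CPM), the strand-exchange protein Dmc1 (42.0, 45.4 and 48.5 CPM against 10.1, 13.2 and 15.2 CPM) and Prdm9, which marks recombination sites (19.3, 21.8 and 7.83 CPM against 0), were also higher in the Kit-rich cluster. Mei1 and M1ap were the remaining genes of the 7. Without the 2 members rich in spermatocyte RNA, the Kit-rich cluster of wildtype replicate 2 stood at 704 CPM for Smc1b, 47.7 CPM for Dmc1 and 135 CPM for Meioc, no lower than with them.

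Cell cycle genes were lower in the Sdc4-rich cluster. All 24 S phase genes had a median log2 ratio of -1.01, none lay above 0, and 7 passed the size rule, among them Mcm4, Rrm2, Dtl, Ccne1, Ccne2 and Cdc6. The replication licensing factor Cdc6 stood at 5.07, 0 and 9.13 CPM there against 64.8, 45.4 and 56.4 CPM in the Kit-rich cluster. Cyclin E2, Ccne2, stood at 25.3, 4.41 and 21.3 CPM against 112, 74.5 and 139 CPM. Of 22 genes of G2 and M phase, 3 passed as lower, Mki67, Tpx2 and Hmgb2, and the proliferation marker Mki67 stood at 65.9, 119 and 128 CPM against 363, 338 and 338 CPM. Among 5 measured cyclin-dependent kinase inhibitors, 2 were higher in the Sdc4-rich cluster. Cdkn1b (p27) stood at 50.7, 48.5 and 51.7 CPM there and at 0 in the Kit-rich cluster, and Cdkn1c (p57) at 132, 66.1 and 189 CPM against 8.76, 16.4 and 15.7 CPM. No phase was called for single cells.

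Wnt genes went both ways. Of 21 measured Wnt and beta-catenin components, 3 were higher in the Sdc4-rich cluster, the receptor Fzd2 and the nuclear effectors Tcf7l2 and Lef1, and the destruction complex scaffold Axin1 was lower. Lef1 stood at 40.6, 35.3 and 12.2 CPM against 1.75, 9.08 and 3.13 CPM. Of 9 measured Wnt targets and antagonists, the secreted antagonists Dkk3, Sfrp1 and Sfrp2 were higher and the target Ccnd1 was lower. Of the 16 components and 4 targets at 20 CPM in the summed members, 0 were higher, and Axin1 and Ccnd1 were lower. None of 6 measured genes of retinoic acid synthesis, response and breakdown passed, with the receptor Rara at 15.2, 17.6 and 39.6 CPM against 17.5, 14.5 and 17.2 CPM and Rarg at 5.07, 13.2 and 18.3 CPM against 5.25, 9.08 and 12.5 CPM. Of 21 germ-cell RNA-binding and small RNA genes, Piwil4 and Dnd1 were higher and Nanos1, Lin28b and Pum2 lower. The stress genes Jund, Egr1 and Hspa1a, 3 of 10 measured, were higher in the Sdc4-rich cluster, and whether dissociation acted on them was not tested.

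Promoter letters of the clusters' genes were counted as a description. The AGGTCA half-site was found in 83 of 631 promoters (13.2%) of genes higher in the Sdc4-rich cluster and in 59 of 568 (10.4%) of genes higher in the Kit-rich cluster, beside 16.3% of all promoters. These promoters belong to the 492 and 431 genes matched by symbol in the RefSeq table, in which a gene can have several.

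Members and Stra8-positive cells shared most of their transcriptome. This contrast was made by the rule, so its counts are description. Over all 209 members, 185 of 8458 genes (2.19%) were at least 2-fold higher than in Stra8-positive cells in all 3 libraries and 19 (0.225%) lower. The higher genes were led by Sertoli-cell transcripts such as the defensin Defb36, at 144, 96.5 and 184 CPM in the 209 members and 6.51, 2.57 and 4.13 CPM in the 194. Without somatic-rich cells on either side, 19 of 8159 genes (0.233%) were higher and 24 (0.294%) lower, of which 15 and 13 had also been counted with all members.

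Of those 19 higher genes, 14 were also higher in the Sdc4-rich than in the Kit-rich cluster, beside 6.92% of all 9112 genes. The Sdc4-rich cells are part of the members, so this overlap is description. The 14 included Id4, which stood at 16.9, 25.7 and 26.9 CPM in members and 4.20, 5.92 and 5.06 CPM in Stra8-positive cells. Tcl1, a coactivator of AKT kinase, stood at 10.4, 20.6 and 11.4 CPM against 0, 0.987 and 0 CPM, and the neurofilament gene Nefm at 13.0, 38.6 and 7.24 CPM against 1.05, 0.987 and 0 CPM. Enc1, Igfbp6, Nab2, Pmaip1, Ccdc141 and Tslrn1 were named by the same rule. The last of the 10, 5930430L01Rik, varied among the libraries, at 27.3, 12.9 and 3.10 CPM against at most 1.05 CPM.

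Of the 24 lower genes, 0 were also lower in the Sdc4-rich than in the Kit-rich cluster, beside 6.15% of all 9112 genes. The cluster comparison asked for 20 CPM in 1 sum, which genes low in members may miss, so the 2 bases are unlike and the 0 supports nothing. Rap1gapos, 1 of the 24, had 28 UMIs in Kit-rich and 0 in Sdc4-rich members without passing. Lhx8, a LIM homeobox factor, stood at 9.11, 7.72 and 9.30 CPM against 29.4, 21.7 and 34.7 CPM, and the Notch ligand family member Dlk1 at 7.81, 11.6 and 6.20 CPM against 42.0, 38.5 and 21.7 CPM. Elf4, Ccno, Fabp3, Brip1os, Rap1gapos, Iffo1 and Zmynd11 were named by the same rule. Brip1os and Rap1gapos are named as antisense genes, and since the use of strand in counting is not stated, their reads cannot be told from those of their partners.

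Kit, which no part of the rule used, was seen in about as many members as not. In the 194, a Kit UMI was held by 32 of 64 (95% interval 37.2 to 62.8%) in wildtype replicate 1, 29 of 68 (42.6%, 30.7 to 55.2) in wildtype replicate 2 and 37 of 62 (59.7%, 46.4 to 71.9) in the knockout library. The knockout members were deeper, and after each cell had been thinned to 3000 UMIs the shares were 21.9%, 22.1% and 20.97%. Spermatocytes with at least 10 UMIs of Piwil1 and Pou5f2, which should lack Kit, gave 1.86%, 2.39% and 3.20% unthinned at median depths of 59559.5, 40296 and 74791 UMIs, against 11747, 10284 and 15352 in the members. Within the Sdc4-rich cluster 1 of 15, 0 of 15 and 2 of 18 cells held Kit, and within the Kit-rich cluster 63.3%, 54.7% and 79.5%. The level, at 104, 77.2 and 66.2 CPM, was lowest in the knockout library, whose unthinned share was the highest, so no order was read from the shares.

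X-linked RNA was abundant in members beside spermatocytes. X-linked genes held 1.76% (1.73 to 1.79), 1.68% (1.65 to 1.70) and 1.67% (1.65 to 1.70) of UMIs in the 194 members. In Stra8-positive cells the shares were 1.72%, 1.68% and 1.69%, and in the Piwil1 and Pou5f2 cells, in which the sex chromosomes are silenced, 0.0516%, 0.0755% and 0.0641%. Over all 209 members the knockout share was the highest, at 2.00% against 1.85% and 1.77%. Somatic-rich members, which were most numerous in the knockout library, had 2.60%, 3.50% and 3.48%, and without them the knockout value was the lowest of the 3 by a margin within its interval.

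Tex10 (ENSMUSG00000028345; chr4:48430858-48473459, minus strand) was counted in members of every library. Over all 209 it stood at 145 CPM (121 to 173) in wildtype replicate 1, 125 CPM (102 to 151) in wildtype replicate 2 and 118 CPM (99.2 to 139) in the knockout library, against a wildtype mean of 135 ± 14.7 CPM (SD, n = 2). The log2 ratio was -0.19, and the knockout interval overlapped both wildtype intervals. In the 194 the levels were 158, 127 and 129 CPM (log2 ratio -0.14). By cluster they were 137, 145 and 161 CPM in Sdc4-rich and 165, 120 and 113 CPM in Kit-rich members, so the knockout sum was the highest in one and the lowest in the other. A count at the 3′ end of the transcript need not register a deletion elsewhere in the gene, so these levels do not check the genotype of single members.

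Most genes of the Tex10 complex list lay below the wildtype mean, but their sum was close to that of wildtype replicate 2. It was 1658 and 1552 CPM in the wildtype libraries and 1539 CPM in the knockout library. Of 12 measured genes of the Tex10 complex list, 0 passed the size rule in either direction between knockout and wildtype members, 3 had a log2 ratio above 0, and the median was -0.13, beside -0.04 for all genes tested. The endonuclease Las1l stood at 62.5, 48.9 and 45.5 CPM, Pelp1 at 75.5, 93.9 and 77.5 CPM, the SUMO protease Senp3 at 72.9, 65.6 and 46.5 CPM and the large remodelling ATPase Mdn1 at 249, 269 and 242 CPM. The knockout value was below both wildtype values for Las1l, Senp3 and Mdn1 and between them for Pelp1. Of 34 ribosome biogenesis genes 0 passed, with 21 above 0 and a median of 0.07. Since only 0.417% of all 7679 genes passed in each direction, 0 in lists of these sizes is near that share. The nucleolar chaperone Npm1 stood at 2598, 2555 and 2763 CPM. Ribosomal protein genes together held 17.0%, 16.4% and 17.0% of UMIs in the 194.

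Between knockout and wildtype members, fewer genes passed the size rule once the somatic-rich members were left out. The rule asked for at least 2-fold against each wildtype library, a smaller ratio at least 2 times that between the wildtype libraries on the log2 scale, and at least 20 CPM in 1 library. With all 209 members, 109 of 8002 genes (1.36%) were higher in the knockout library and 36 (0.45%) lower. In the 194, 32 of 7679 (0.417%) were higher and 32 (0.417%) lower, and 26 and 15 of these had been counted before. Genes counted only with the somatic-rich members included the smooth muscle actin Acta2, at 2.33, 0 and 61.1 CPM in the 209 with 94.4% of its knockout UMIs in 1 barcode, and the Sertoli claudin Cldn11. Gm37350, Serpina3a, Olfr1369-ps1, Gm14226, Timp1 and Prnd were among the 10 highest with all members and were at most 6.20 CPM in any library of the 194.

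A 2-fold difference in these sums was common between the wildtype mice themselves. In the 194, 429 genes (5.59%) differed at least 2-fold between the wildtype libraries and 214 (2.79%) between the knockout library and the wildtype mean. With all 209 the numbers were 281 (3.51%) and 369 (4.61%). The 2 kinds of count are unlike and do not rank the differences. The first sets 1 library against 1 library, and the second sets 1 library against a mean of 2, which varies less. The knockout sum of the 194 was also deeper, at 967373 UMIs against 768231 and 777233. The knockout counting interval lay apart from both wildtype intervals for 23 of the 32 higher and 6 of the 32 lower genes. As a check of method, edgeR's quasi-likelihood test of the summed counts, which assumes that the lone knockout library varies like the wildtype pair, called 43 higher and 11 lower at an adjusted p of 0.05 (Benjamini-Hochberg), 23 of them shared with the size rule. Leaving out also the 2 members rich in spermatocyte RNA, an alternative chosen after seeing the data, gave 36 higher and 34 lower of 7535 genes.

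**Figure D4:**
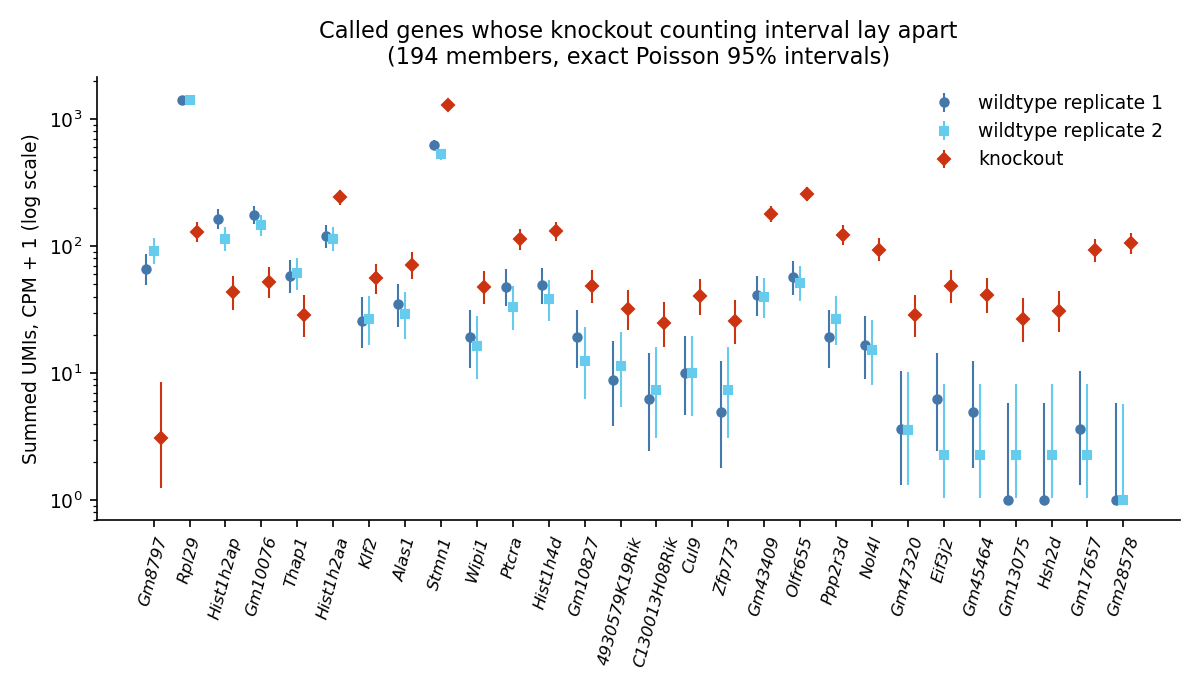
Summed UMIs of the 194 members as CPM plus 1 on a log axis, for 28 of the 29 genes past the size rule whose knockout counting interval lay apart from both wildtype intervals, ordered by log2 ratio; blue circles are wildtype replicate 1, light blue squares wildtype replicate 2, red diamonds the knockout library, and bars exact Poisson 95% intervals. The 5 genes on the left are lower and the 23 on the right higher in the knockout library.

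Of the 32 genes higher in the knockout library, 22 were held by 10 or more of its members and the rest by fewer, and 9 of the 32 lower ones were held by 10 or more. The most widely held was Stmn1. Stmn1 (chr4:134468320-134473843) encodes stathmin, a protein that destabilizes microtubules and is abundant in dividing cells. It stood at 626 (571 to 685) and 526 (476 to 580) CPM in the wildtype libraries, a mean of 576 ± 70.6 (SD, n = 2), and at 1302 (1232 to 1376) CPM in the knockout library, a log2 ratio of 1.18. All 62 knockout members held it, and the highest held 5.6% of its UMIs. It was high in knockout cells of both clusters, at 537, 295 and 1260 CPM in the Sdc4-rich and 657, 621 and 1324 CPM in the Kit-rich cluster, and in Stra8-positive cells, at 869, 664 and 1786 CPM. Of its 3′ end, 26.2% of 31-base words also occur in transcripts of other genes.

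Eif3j2, a gene with the sequence of a translation initiation factor subunit, stood at 5.21, 1.29 and 47.6 CPM, with UMIs in 4, 1 and 27 members. In Stra8-positive cells it stood at 1.05, 0.987 and 47.7 CPM. Since 93.4% of its 3′ words occur in Eif3j1, its counts are uncertain. Its highest knockout member held only 8.7% of its knockout UMIs. Eif3j2 no longer passed the size rule when its highest member was left out in each library. That step removed the only UMI of wildtype replicate 2, and so changed the ratio between the wildtype libraries that the rule also uses. The uncharacterised gene Gm47320 stood at 2.60, 2.57 and 27.9 CPM, in 19 knockout members, and at 4.20, 3.95 and 26.8 CPM in Stra8-positive cells.

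Histone genes appeared on both sides. Hist1h4d stood at 48.2, 37.3 and 130 CPM, in 41 of 62 knockout members, and Hist1h2aa, a testis histone, at 120, 113 and 241 CPM. By cluster, Hist1h2aa stood at 152, 153 and 349 CPM in Kit-rich but 25.3, 17.6 and 30.4 CPM in Sdc4-rich members. In Stra8-positive cells it stood at 82.9, 52.3 and 88.9 CPM and did not pass the rule. Hist1h1d, Hist1h3e and Hist3h2ba were also higher, with knockout intervals that met a wildtype one. Hist1h2ap was lower, at 163, 113 and 42.4 CPM, and 93.4% of its 3′ words are shared with Hist1h2ao. These histone genes, and Stmn1, Thap1 and the Stra8-positive values, were singled out after their values had been seen.

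**Figure D5:**
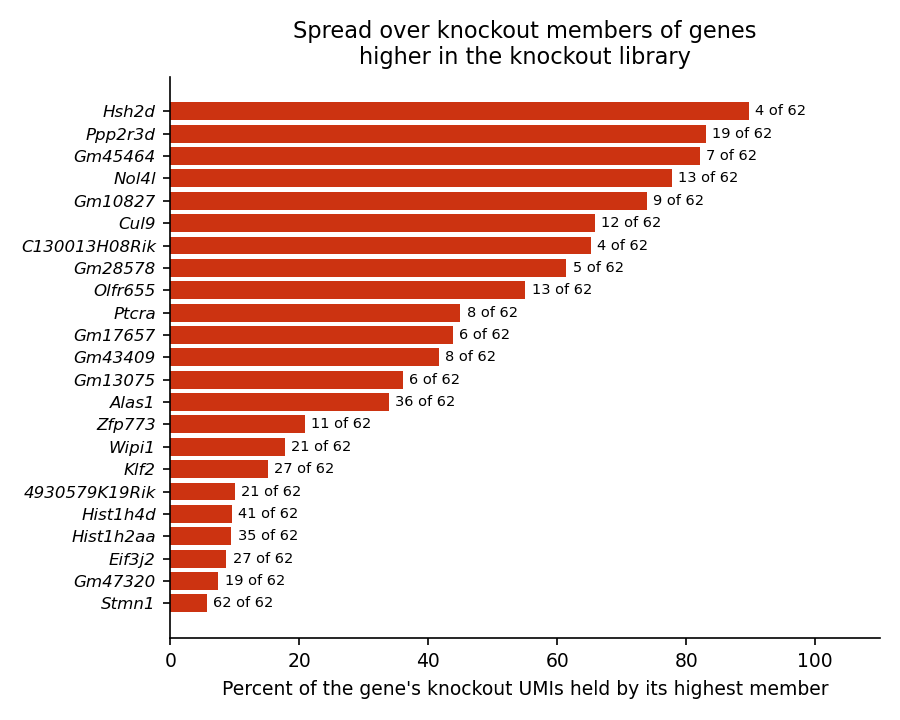
For the 23 genes higher in the knockout library whose counting interval lay apart, bars give the percent of the gene's knockout UMIs held by its highest member, and labels give how many of the 62 knockout members held the gene. Bars run from 89.7% for Hsh2d, held by 4 members, to 5.6% for Stmn1, held by 62.

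For several of the genes with the largest ratios, 1 member held much of the count. Gm28578 was at 0 in both wildtype libraries and at 104 CPM (85.0 to 127) in the knockout library, at least 53.8-fold higher on a limit of 3 counts over both wildtype libraries, yet 5 members held it and 1 of them 61.4% of its UMIs. Stra8-positive cells held it in every library, at 27.3, 65.2 and 44.8 CPM. Hsh2d had 89.7% of its knockout UMIs in 1 member, Ppp2r3d 83.1%, Gm45464 82.1%, Nol4l 77.8% and Olfr655 55.0%. Gm17657 had 43.8% in 1 of 6 members and Gm13075 36.0% in 1 of 6. When each gene's highest member was left out in every library, 29 genes were higher, of which 15 were among the 32, and 26 lower, of which 19 were among the 32. Gm28578, Olfr655 and Gm17657 still passed, and Hsh2d, Ppp2r3d, Gm45464, Nol4l and Gm13075 did not. A gene could fail by any part of the rule, including the minimum of 20 CPM and the ratio between the wildtype libraries. A failure thus need not mean that 1 member held most of the count. A counting interval takes molecules as independent, so for such genes it is too narrow.

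Among the lower genes, Gm8797 and Rpl29 had the largest ratios. Rpl29 (chr9:106429454-106431568), a protein of the large ribosomal subunit, stood at 1407, 1406 and 128 CPM, a log2 ratio of -3.45, and was seen in 54 of the 62 knockout members. The low level held in both clusters, at 2210, 2186 and 161 CPM in Sdc4-rich and 1130, 1085 and 111 CPM in Kit-rich members, with the wildtype level higher in the Sdc4-rich cluster. Of its 3′ words, 57.7% occur in other transcripts. Gm8797 stood at 65.1, 91.3 and 2.07 CPM with 93.0% of words shared, and Gm10076, which shares 82.2% with Rpl41, at 176, 145 and 51.7 CPM. These 3 genes and Hist1h2ap passed the rule in Stra8-positive cells as well. Thap1 (57.3, 60.5 and 27.9 CPM) was lower in members but stood at 47.2, 61.2 and 47.7 CPM in Stra8-positive cells. Of the 32 lower genes, 26 had knockout intervals that met a wildtype one, among them Slc25a20, 1700041C23Rik, 1700016K05Rik, Trp53i11, Cnih2 and Rubcn of the 10 named by the rule.

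In Stra8-positive cells without somatic-rich ones, 29 of 7612 genes (0.381%) were higher and 25 (0.328%) lower in the knockout library. Of these, 7 higher and 4 lower genes were also past the rule in members, and 0 in the opposite direction. The 7 were Stmn1, Eif3j2, Gm47320, Gm45464, Gm13075, Hist1h4d and Tceanc2. Members and Stra8-positive cells of a library come from the same mice, so this is no independent support.

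No gene of the 18 pathway lists passed the size rule between knockout and wildtype in the 194. Among all 7679 genes, 32 (0.417%) passed in each direction, so 0 in these lists is near that share. The 13 measured stem cell genes had a median log2 ratio of 0.12, the 14 differentiating genes -0.10, the 15 meiotic genes -0.07 and the 24 S phase genes 0.01. Of 22 genes of G2 and M phase, 3 were above 0 and the median was -0.19. The 16 Wnt and beta-catenin components had a median of -0.22 with 5 above 0, including beta-catenin itself, Ctnnb1, at 113, 117 and 84.8 CPM below both wildtype values. The 9 stress genes had a median of 0.30 and the 11 p53 target and apoptosis genes 0.14. In the full 209, single list genes did pass as higher, among them Cdkn2b, Jun, Junb, Fosb and Hspb1, and none of these 5 passed in the 194. With 62 knockout members in 1 library, these values do not show that smaller changes were absent.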

How the data were processed

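The deposited files hold raw UMI counts per gene and barcode, whole numbers over 32285 genes. Per the submitters' processing notes, the authors used Cell Ranger 4.0.0, Seurat 4.0.5 and the mm10 build; the use of strand and introns in counting is not given in the sources used here. Members, gene lists (18 pathway and 10 other cell type lists) and size rules were chosen with earlier results of these data known. Counts were summed over members per library and scaled to CPM of total UMIs, with 1 CPM added in log2 ratios (python 3.11.15, numpy 2.4.6, scipy 1.17.1, pandas 2.3.3). The knockout group is 1 library, so the main comparisons used a size rule and no test, and edgeR's quasi-likelihood test, which assumes that this library varies like the wildtype pair, was an alternative; Poisson and Clopper-Pearson intervals cover counting error only.

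Named are the rule's genes, Tex10, the 10 genes of largest smaller ratio in each direction of each comparison, and, of each list, the up to 4 most abundant genes and those past the size rule; not all are printed, and others were chosen after their values were seen. Gene positions are GENCODE M21 (GRCm38). Clustering used genes seen in at least 15 cells, the 1500 most variable, 10 components and Ward linkage. Scrublet (scanpy 1.11.5, barcodes with at least 1000 UMIs and 500 genes) called 0, 1 and 0 doublets, so the call had not worked and none were removed; leaving out the top 8% of scores was an alternative. Shared sequence was counted as 31-base words of the last 500 bases of a gene's transcripts. Summation and size rules were tested on simulated data. Alternatives covered the membership limits, scaling by edgeR 4.0.16 or DESeq2 1.42.0 (R 4.3.3), the added CPM, the CPM minimum, the fold and each wildtype library left out. A few genes past these rules are not reported here.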

Additional observations from a re-analysis of the deposited data

How the results depend on the processing

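All 209 members gave 109 genes higher and 36 lower in the knockout library. The higher count was 68 with a minimum of 5 marker UMIs, 47 without members holding 5 or more Sertoli-list UMIs, 38 with the rule on barcodes thinned to 3000 UMIs, 647 with no CPM filter, 40 at 50 CPM, 262 at 1.5-fold and 259 by edgeR's quasi-likelihood test. The lower count was 198 with at most 5% mitochondrial UMIs, 85 without Sertoli-list members, 71 thinned, 534 with no CPM filter, 7 at 50 CPM and 199 at 1.5-fold. Leaving out 1 wildtype library, which also removes the limit set by the wildtype pair, gave 258 to 368 higher and 100 to 170 lower. Against Stra8-positive cells, 185 higher genes became 30 with at most 5% mitochondrial UMIs, 18 without Sertoli-list members, 22 thinned and 224 to 280 without 1 wildtype library; 19 lower became 42 thinned and 46 to 48 without 1 wildtype library. Alternatives chosen after seeing the data gave 32 higher in the knockout library and 19 higher than in Stra8-positive cells without somatic-rich members, and 14 lower in the knockout library with each gene's highest member left out.

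The Tex10 log2 ratio was 0.23 under the thinned rule, the opposite sign to -0.19, and -0.30 to -0.08 without 1 wildtype library. The following are knockout minus wildtype mean, in percentage points. The X-linked share, 0.187, was 0.0863 with 5 marker UMIs, 0.111 with 5% mitochondrial UMIs, -0.0546 without Sertoli-list members, -0.00601 thinned and -0.0473 without somatic-rich members (0.145 to 0.228 without 1 wildtype library). The share of members, -0.229, was 0.264 with 5% mitochondrial UMIs and -0.640 without Sertoli-list members (-0.507 to 0.0485). The Kit share, 6.79, was 24.9 without Sertoli-list members and 13.4 without somatic-rich ones (3.63 to 9.96). Leaving out members with 5 or more Sertoli-list UMIs kept 44 and 53 wildtype and 38 knockout members of 67, 70 and 72. It thus also removed many members under the somatic limit. This limit of 5 UMIs did not scale with depth, and knockout members were the deepest. The Sdc4-rich share, 6.28, was 1.46 with 5 marker UMIs, 4.02 with at least 6000 UMIs, -3.87 without Sertoli-list members and -2.04 thinned (5.59 to 6.97); these re-clusterings were added after seeing the data. The causes were not tested. No paired analysis of knockout against wildtype was possible because the groups compared share fewer than 2 replicate numbers. The comparisons with Stra8-positive cells and between the clusters took ratios within each library.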
